A study of Mus musculus with 29 samples.

Results

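The genes described here are 10 genes of antioxidant defence, several of them textbook targets of the transcription factor NRF2: Nqo1, Gclc, Gclm, Txnrd1, Srxn1, Hmox1, Cat, Sod1, Sod2 and Sod3. They were chosen by symbol, and all 10 were found among the 24770 rows of the count table. RNA-seq was performed on brown adipose tissue (BAT) and gastrocnemius skeletal muscle (SkM) of wild-type male C57BL/6J mice that were young adults at the start. The control mice were sedentary and ate freely, the CR mice were sedentary on calorie restriction, the EX mice ate freely and were trained on a treadmill, and the CREX mice (CE in the sample titles) were both restricted and trained. BAT was represented by 3 control, 4 CR, 4 EX and 4 CREX libraries, and SkM by 4 control, 3 CR, 4 EX and 3 CREX libraries. Food was reduced in steps to its final level, trained mice were killed a day after the last bout, and all groups were fasted before tissue harvest. The records state neither that each library came from a separate mouse nor whether both tissues came from the same mice, so p-values measure the spread between libraries, and fits over both tissues treated all libraries as independent.

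NRF2, the product of Nfe2l2, is held in the cytosol by KEAP1 and marked for degradation. Oxidants and electrophiles modify KEAP1, after which NRF2 enters the nucleus and binds antioxidant response elements together with small MAF proteins, while BACH1 competes for the same sites. Its targets make glutathione, reduce thioredoxin and sulfinylated peroxiredoxins, and reduce quinones. Superoxide dismutases and catalase form the enzymatic chain that removes superoxide and hydrogen peroxide, in tissues such as BAT and muscle whose mitochondria respire at a high rate.

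Promoter sequences from RefSeq (GRCm38.p6, 250 bases before to 50 bases after a start site) were matched for 7 of the 10 genes. The core of the antioxidant response element, TGACNNNGC on either strand, was found in a promoter of 4 of these 7, namely Gclm, Txnrd1, Srxn1 and Sod1. Over all genes with a promoter in the same table, 13.99% held it. The stretches around the match that lie before the start site are shown because Gclm and Sod1 moved together in BAT while Txnrd1 did not pass the test there. Capitals mark the match, which is on the opposite strand in each, and the sequence is given 5′ to 3′ on the strand of the gene.
Gclm (chr3:122245392-122245462, plus strand): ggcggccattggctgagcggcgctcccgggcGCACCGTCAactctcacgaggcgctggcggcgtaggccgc
Sod1 (chr16:90220675-90220745, plus strand): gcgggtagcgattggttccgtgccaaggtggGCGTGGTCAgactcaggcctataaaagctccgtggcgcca
Txnrd1 (chr10:82859083-82859153, plus strand): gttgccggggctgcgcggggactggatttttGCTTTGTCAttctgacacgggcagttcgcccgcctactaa
The match begins 134 bases before the start site in Gclm, 56 in Sod1 and 92 in this promoter of Txnrd1, which was 1 of 3 listed for that gene. A match describes these letters and not a site in use.

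The libraries held 21047200 to 24919400 counts in BAT and 23050900 to 23425300 in SkM. Values are given as CPM, read counts scaled to library size with TMM factors, and a difference was called at a Benjamini-Hochberg adjusted p under 0.05 in edgeR's quasi-likelihood test over all genes tested. Brown adipocyte markers summed to 9882 to 14256 CPM in BAT and to 111 to 294 CPM in SkM, and muscle fibre markers to 115481 to 191386 CPM in SkM, so the labelled tissues carried their own markers. The muscle fibre markers also reached 4.09 to 5551 CPM in BAT, with a wide range inside each group. They summed to 4.09 to 568 CPM in BAT control, 18.2 to 1281.5 in CR, 7.45 to 3491 in EX and 865 to 5551 in CREX. Every BAT CREX library was thus above every BAT control library. SkM CREX libraries 2 and 3 stood apart, with slow fibre genes at 122 and 59.9 CPM in sum against 438 to 2562 CPM in the other SkM libraries. In whole tissue, fewer cells of a type and less RNA per cell cannot be told apart.

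The tissues differed in the level of almost all members. Per kilobase of exon, Sod1, the cytosolic copper-zinc superoxide dismutase, ranked first in both tissues, with 460.3 ± 32.1 CPM per kb in BAT (SD, n = 3 control libraries) and 157 ± 23.6 in SkM (SD, n = 4). Cat, the peroxisomal catalase, and Sod2, the mitochondrial manganese superoxide dismutase, came next in both, at 203 ± 3.53 and 81.4 ± 2.32 CPM per kb in BAT and at 58.9 ± 2.93 and 44.5 ± 2.48 in SkM. Nqo1, a quinone reductase, was last in BAT with 0.570 ± 0.0884 CPM per kb and stood between Txnrd1 and Srxn1 in SkM with 12 ± 1.31. In BAT no neighbours in the order overlapped, whereas in SkM Txnrd1 and Nqo1 overlapped, as did Hmox1 with Sod3 and Sod3 with Gclc. The exon lengths came from the union of annotated exons, so the order depends on which transcripts are made.

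Set against BAT over all 4 groups, 9 of the 10 members differed in SkM, beside 86.2% of 14865 genes tested. Nqo1 was higher in SkM by 3.60 ± 0.09 on the log2 scale (SE, adjusted p = 1.15e-23), and Txnrd1, the cytosolic thioredoxin reductase, by 0.36 ± 0.05 (adjusted p = 5.33e-07). The other 7 were lower in SkM, from -0.49 for Gclc to -3.62 ± 0.11 for Sod3, the extracellular superoxide dismutase (adjusted p = 1.16e-20). Hmox1, the inducible haem oxygenase, differed by 0.01 ± 0.13 (adjusted p = 0.940). Between the control libraries alone 9 members were called as well, beside 10334 of 13797 genes tested. There, however, Hmox1 was higher in SkM by 0.46 (adjusted p = 0.00499) and Gclc, at -0.08, was not called (adjusted p = 0.555).

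**Figure D1:**
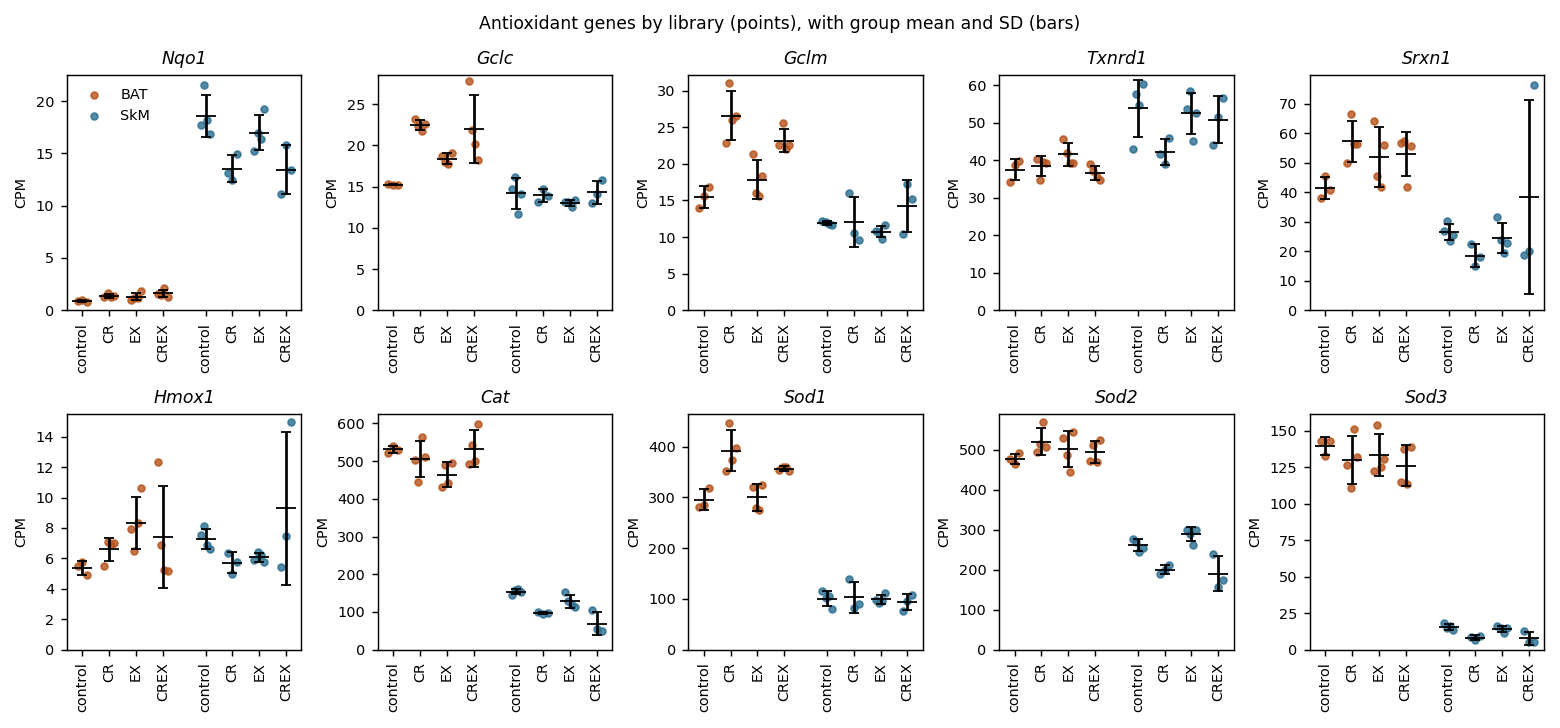
Level of each of the 10 genes in CPM (linear axis from 0) in every library of the 4 groups of BAT and SkM, with points for libraries and bars for the group mean and SD. Gclc, Gclm and Sod1 stand higher in BAT CR than in BAT control, Cat, Sod2 and Sod3 stand lower in SkM CR than in SkM control, and 1 SkM CREX library is far above the others for Srxn1 (76.4 CPM).

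In BAT, both subunits of the enzyme that limits glutathione synthesis rose under CR, together with sulfiredoxin and Sod1. Of the 10 members, 4 rose in CR against control and none fell, beside 20.9% of genes called and 9.99% called higher. The median log2 fold change of the members was 0.32, against 0.0045 over all genes tested.

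Gclc (chr9:77754535-77794485, GRCm38, plus strand), the catalytic subunit of glutamate-cysteine ligase, stood at 15.3, 15.2 and 15.2 CPM in the BAT control libraries and at 23.2, 22.3, 21.7 and 22.6 CPM in the CR libraries. Every CR library was above every control library, and the rise was 0.53 ± 0.07 on the log2 scale (adjusted p = 0.000978). In the trained mice Gclc measured 18.7, 18, 17.7 and 19.1 CPM in EX and 27.8, 21.9, 20.1 and 18.2 CPM in CREX. The lowest CREX library lay inside the EX range, and the difference of 0.23 ± 0.13 was not called (adjusted p = 0.281).

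Gclm (chr3:122245557-122270732, plus strand), the modifier subunit of the same ligase, measured 14.0, 15.6 and 16.9 CPM in BAT control and 22.8, 31.1, 26 and 26.5 CPM in CR. The groups did not overlap, and Gclm rose by 0.75 ± 0.12 (adjusted p = 0.00192), the only called member past 1.5-fold in this comparison, beside 10.7% of genes. In EX it measured 21.3, 16.1, 15.5 and 18.4 CPM and in CREX 22.5, 25.5, 22.1 and 22.6 CPM. These groups did not overlap either, and the difference of 0.35 ± 0.10 missed the threshold (adjusted p = 0.0617), which it passed with DESeq2, without a filter on low counts, in 1 fit on all groups and with the muscle fibre covariate (adjusted p between 0.0300 and 0.0856 over the alternatives that kept all libraries).

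Srxn1 (chr2:152105516-152111376, plus strand), sulfiredoxin, which restores overoxidized peroxiredoxins, measured 37.9, 45.4 and 40.9 CPM in BAT control and 49.9, 66.6, 56.3 and 56.2 CPM in CR. All CR libraries were above all control libraries, with a rise of 0.44 ± 0.11 (adjusted p = 0.0177). In EX (64.1, 45.4, 41.8 and 55.9 CPM) and CREX (56.6, 57.4, 41.7 and 55.7 CPM) the libraries overlapped throughout and the difference was -0.0013 ± 0.15 (adjusted p = 0.997). Without BAT control library 1 the rise under CR lost its call (0.37, adjusted p = 0.0732), and likewise without control library 3 (0.43, adjusted p = 0.0629).

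Sod1 (chr16:90220754-90226329, plus strand) measured 281, 286 and 319 CPM in BAT control and 352, 446, 374 and 396 CPM in CR, with no overlap and a rise of 0.38 ± 0.10 (adjusted p = 0.0192). In the trained groups it measured 320.3, 279, 274 and 325 CPM in EX and 353, 360.3, 359.6 and 351 CPM in CREX. Every CREX library was above every EX library, and the difference of 0.22 ± 0.07 was not called (adjusted p = 0.0963). The rise under CR alone lost its call without BAT control library 1 (0.34, adjusted p = 0.0760) or 2 (0.36, adjusted p = 0.0777).

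The other 6 members were not called in BAT CR against control. Nqo1 had the second largest difference, 0.60 ± 0.22 (adjusted p = 0.0800), with 20 to 28 counts a library in control and 31 to 38 in CR, which do not overlap. Sod2 ranged from 464 to 491 CPM in control and from 493 to 569 CPM in CR, again without overlap, for a difference of 0.09 ± 0.06 (adjusted p = 0.305). In CR against control, 6 of the 10 members had groups that did not overlap, and 33.8% of genes tested did.

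In the comparison of CREX with EX in BAT, no member was called, beside 8.01% of genes, and 3 members had an unadjusted p under 0.05, as did 25.6% of genes. DESeq2 called Gclm and Sod1. Txnrd1 lay at 34.8 to 38.9 CPM in CREX and at 39.2 to 45.6 CPM in EX, without overlap, and differed by -0.22 ± 0.07 (adjusted p = 0.0846), a fall that was called in 1 fit on all BAT groups (adjusted p = 0.0476). Gclm, Sod1 and Txnrd1 were the 3 members whose CREX and EX libraries did not overlap, beside 18.1% of genes. Averaged over sedentary and trained mice, 3 members rose under CR in BAT, beside 33.4% of genes called and 15.9% called higher. These were Gclc by 0.38 ± 0.08 (adjusted p = 0.00148), Gclm by 0.55 ± 0.08 (adjusted p = 0.000147) and Sod1 by 0.30 ± 0.06 (adjusted p = 0.00159). All 3 calls held when any 1 of the 15 BAT libraries was left out, and none of the 3 was past 1.5-fold, beside 11.8% of genes. No member, and none of the 13922 genes tested, was called by edgeR for an interaction of CR and EX in BAT. An unadjusted p under 0.05 was given to 4 members and 5.75% of genes, and DESeq2 called 5 genes, none of them a member.

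Markers of other cells moved in BAT as well. All 8 fibroblast markers fell in the average CR effect, and their sum was 167 to 198 CPM in CR against 289.6 to 353 CPM in control. Of 10 macrophage markers 7 fell and 1 rose, with a sum of 44.8 to 67.5 CPM in CR and 75.6 to 81.1 CPM in control, and none of either list was at 0 in a group. Their part in the members' differences was not tested. With the muscle fibre score as a covariate, 5 members were called higher in the average CR effect, Nqo1 and Srxn1 being added to the 3 above. This fit called 4882 of 13922 genes, 2320 of them higher.

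**Figure D2:**
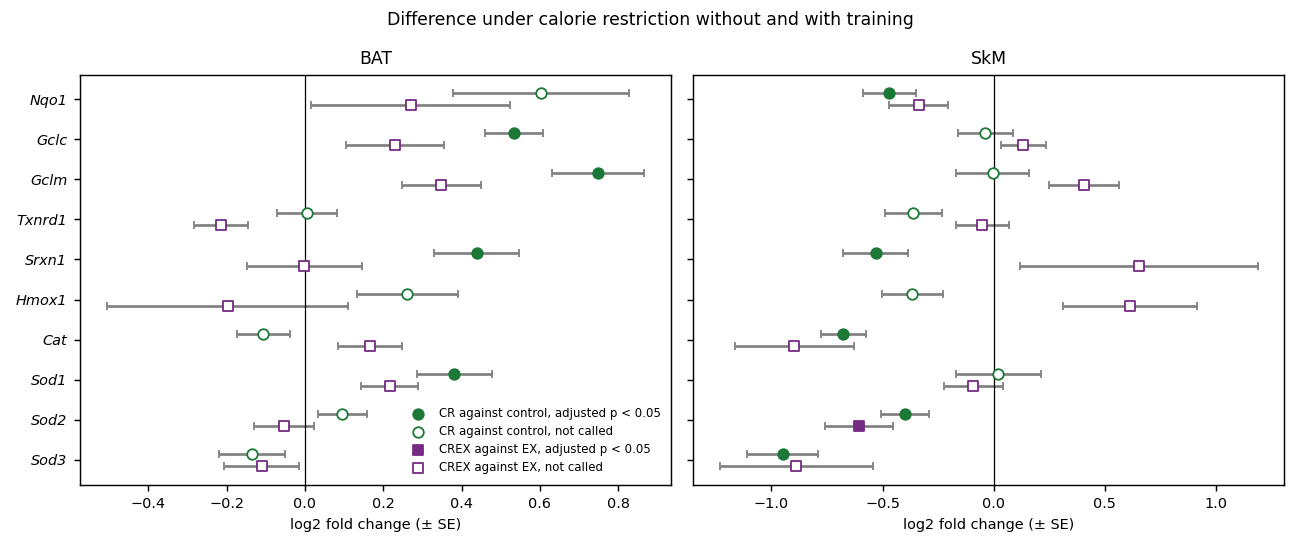
Log2 fold change with its SE for the 10 genes under CR, in sedentary mice (circles, CR against control) and trained mice (squares, CREX against EX), in BAT (left) and SkM (right), where filled symbols passed an adjusted p of 0.05. In BAT 4 circles are filled, all to the right of 0, and in SkM 5 circles and 1 square are filled, all to the left of 0.

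In SkM, catalase, the mitochondrial and extracellular superoxide dismutases, Nqo1 and Srxn1 fell under CR. Of the 10 members, 5 fell in CR against control and none rose, beside 14% of genes called and 7.67% called lower. The median log2 fold change of the members was -0.38, against 0.0050 over all genes tested. The groups did not overlap for 6 members, as for 27.7% of genes tested, and 2 called members, Cat and Sod3, were past 1.5-fold, beside 9.6% of genes.

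Cat (chr2:103453849-103485160, minus strand) measured 144, 159, 161 and 151 CPM in SkM control and 99.9, 94.6 and 97.1 CPM in CR. All CR libraries were below all control libraries, and Cat fell by 0.68 ± 0.10 on the log2 scale (adjusted p = 0.00220). In the trained mice it measured 152, 129, 118 and 112 CPM in EX and 104, 53.2 and 48.8 CPM in CREX. The groups did not overlap, and the difference of -0.90 ± 0.27 was not called (adjusted p = 0.0585). CREX libraries 2 and 3 were the lowest of the 14, and without both the difference was -0.29 (adjusted p = 0.385).

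Sod2 (chr17:13006846-13040063, plus strand) measured 277, 268, 244 and 255 CPM in SkM control and 188, 199 and 211 CPM in CR, and fell by 0.40 ± 0.11 (adjusted p = 0.0352). In EX it measured 299.9, 289, 263 and 300.2 CPM and in CREX 239, 156 and 174 CPM, and fell by 0.61 ± 0.15 (adjusted p = 0.0313). Neither pair of groups overlapped, and without CREX libraries 2 and 3 the latter difference was -0.27 (adjusted p = 0.295). The call in sedentary mice was kept in only 1 of the 7 fits with a library left out, that without CR library 1 (adjusted p between 0.0466 and 0.110). That in trained mice was kept only without CREX library 1 (adjusted p between 0.000255 and 0.106), where Cat (-1.33, adjusted p = 4.61e-05) and Sod3 (-1.49, adjusted p = 9.55e-05) were called too.

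Sod3 (chr5:52363791-52371418, plus strand) measured 17.9, 14.9, 15.9 and 13.4 CPM in SkM control and 8.51, 6.33 and 9.46 CPM in CR. The fall of 0.95 ± 0.16 was the largest among the members (adjusted p = 0.00405), and no library overlapped. In EX (15.9, 14.9, 11.1 and 14.5 CPM) and CREX (12.9, 4.89 and 5.18 CPM) the first CREX library lay inside the EX range, and the difference was -0.89 ± 0.34 (adjusted p = 0.122). Without CREX libraries 2 and 3 it was -0.13 (adjusted p = 0.769).

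Nqo1 (chr8:107388225-107403206, minus strand) measured 17.7, 21.5, 18.2 and 16.9 CPM in SkM control and 13.2, 12.4 and 14.9 CPM in CR, and fell by 0.47 ± 0.12 without overlap (adjusted p = 0.0277). With 1 library left out this call was kept in 4 of 7 fits and lost without CR library 2, control library 2 or control library 3 (adjusted p between 0.0298 and 0.104). In EX (15.2, 17.0, 16.4 and 19.2 CPM) and CREX (11.2, 15.8 and 13.4 CPM) the groups overlapped, and the difference of -0.34 ± 0.13 was not called (adjusted p = 0.115).

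Srxn1 measured 26.8, 30.1, 23.5 and 25.6 CPM in SkM control and 22.6, 15 and 17.9 CPM in CR, and fell by 0.53 ± 0.14 without overlap (adjusted p = 0.0356). The call was kept in 1 of the 7 fits with a library left out, that without CR library 1 (adjusted p between 0.00427 and 0.116). In EX it measured 31.7, 23.8, 19.4 and 22.8 CPM and in CREX 18.7, 20.1 and 76.4 CPM. CREX library 3 was thus far above every other SkM library, and the difference of 0.65 ± 0.53 was not called (adjusted p = 0.441). The same library had the highest Hmox1 of all SkM libraries, 15 CPM against 5.00 to 8.10 CPM, the highest Nfe2l2, 101 CPM against 31.1 to 70.0 CPM, and the highest Nr4a1, an immediate early gene that is no member and was picked after its values were seen, at 822 CPM against 107 to 256 CPM.

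Gclc, Gclm and Sod1, which rose in BAT, differed in SkM CR against control by -0.04 ± 0.12, -0.0047 ± 0.16 and 0.02 ± 0.19, with adjusted p of 0.876, 0.990 and 0.961. Txnrd1 (-0.36 ± 0.13, adjusted p = 0.0883) and Hmox1 (-0.37 ± 0.14, adjusted p = 0.103) were not called either. In CREX against EX 1 member was called, Sod2, beside 13.6% of genes, while DESeq2 called Cat, Sod2 and Sod3. The groups did not overlap for 2 members, Cat and Sod2, and for 28.5% of genes.

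Averaged over sedentary and trained mice, 4 members fell under CR in SkM, beside 33.5% of genes called and 17% called lower. Nqo1 fell by 0.40 ± 0.10 (adjusted p = 0.00506), Cat by 0.79 ± 0.14 (adjusted p = 0.000663), Sod2 by 0.51 ± 0.09 (adjusted p = 0.000748) and Sod3 by 0.92 ± 0.19 (adjusted p = 0.00257). Each was called in all 14 fits with a library left out, and Cat and Sod3 were past 1.5-fold, beside 14.1% of genes. Srxn1 stood at 0.06 ± 0.29 (adjusted p = 0.890) and turned to -0.44 (adjusted p = 0.0153) without CREX library 3. No interaction of CR and EX was called for a member, nor for any of the 13610 genes (edgeR). An unadjusted p under 0.05 was given to 4.92% of genes and to 1 member, Hmox1, and DESeq2 called 4 genes and no member.

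**Figure D3:**
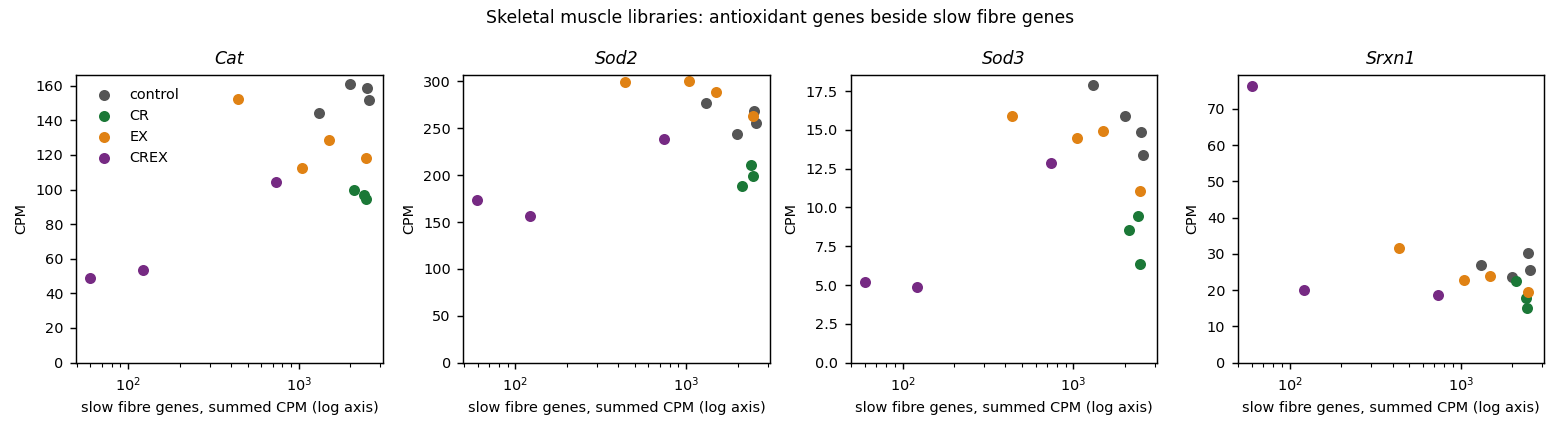
CPM of Cat, Sod2, Sod3 and Srxn1 (linear axis from 0) in the 14 SkM libraries against the summed CPM of slow fibre genes (log axis), coloured by group. CREX libraries 2 and 3, at the far left with 122 and 59.9 CPM of slow fibre genes, have the lowest Cat, Sod2 and Sod3, while the 3 CR libraries lie low for these genes at 2110 to 2461 CPM of slow fibre genes.

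Fibre type and traces of other tissue differed between SkM libraries. The slow fibre genes, listed after the data were seen, summed to 2110 to 2461 CPM in the CR libraries and 1307 to 2562 CPM in the control libraries, so that Cat, Sod2 and Sod3 were lower in CR with slow fibre genes inside the control range. In CREX the sum was 738, 122 and 59.9 CPM, and in EX 438 to 2465 CPM. With the slow fibre score as a covariate the average CR effect was called for the same 4 members. Genes called in it went from 4556 to 2908 of 13610, of which 1600 were lower. In CREX against EX alone no member was called with this covariate, where genes called went from 1781 to 53 of 13112. Leaving out CREX libraries 2 and 3 kept only CREX library 1 in its group. The differences from EX were then -0.29 for Cat, -0.27 for Sod2 and -0.13 for Sod3. Hepatocyte genes, a list also made after seeing the data, summed to 45.9 to 255 CPM in CR and 0.348 to 7.35 CPM in control. With their score as a covariate no member was called in CR against control, where genes called went from 1839 to 142 of 13173. In the average CR effect with this covariate, 4258 of 13610 genes were called. Cat, Sod2 and Sod3 were called lower there, Gclm was called higher (0.57, adjusted p = 0.00677) and Nqo1 was not called (-0.33, adjusted p = 0.103). Hepatocyte genes summed to 54.1, 0.444 and 0.518 CPM in CREX libraries 1, 2 and 3 and to 0.196 to 2.15 CPM in EX. In CREX against EX this covariate therefore mainly sets CREX library 1 apart from the low slow fibre libraries 2 and 3. With it Gclm (0.52, adjusted p = 0.0125) and Hmox1 (0.81, adjusted p = 0.0275) were called higher in CREX against EX. Genes called there went from 1781 to 3653 of 13112, of which 1736 were higher. Group and hepatocyte signal nearly coincide in CR against control and cannot be told apart there. Fibroblast markers fell in SkM too, 6 of 8 tested in the average CR effect, with 272 to 350 CPM in CR and 403 to 524 CPM in control, and their part was not tested.

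No member passed the test for training. In EX against control in BAT, edgeR called 0% of 13407 genes, 7.25% of genes and 3 members (Gclc, Hmox1 and Cat) had an unadjusted p under 0.05, and DESeq2 called 74 genes and no member. The same 3 members did not overlap between these groups, beside 7.73% of genes. In SkM 0.093% of genes were called, 2 members (Cat and Hmox1) and 6.85% of genes had an unadjusted p under 0.05, Gclm and Hmox1 did not overlap, beside 4.15% of genes, and DESeq2 called no member. In BAT, Hmox1 ranged from 4.88 to 5.78 CPM in control and from 6.46 to 10.6 CPM in EX, the largest difference among the members there (0.62 ± 0.17, adjusted p = 0.437). In SkM, Cat differed by -0.27 ± 0.10 (adjusted p = 0.556). In CREX against CR no member was called by edgeR or DESeq2 in BAT, beside 0.00763% of genes in edgeR, or in SkM, beside 0%. An unadjusted p under 0.05 was given to 7.63% of genes in BAT and 3.65% in SkM, DESeq2 called 65 and 17 genes, and every member overlapped, where 4.83% and 7.77% of genes did not.

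The difference between the tissues was itself tested. The average CR effect in SkM minus that in BAT was called for 5 members, all lower in SkM, beside 20.5% of genes called and 10.1% called lower, and 3 of these (Nqo1, Cat and Sod3) were past 1.5-fold, beside 10.5%. It was -0.84 ± 0.18 for Nqo1 (adjusted p = 0.00171), -0.34 ± 0.11 for Gclc (adjusted p = 0.0337), -0.82 ± 0.16 for Cat (adjusted p = 0.000569), -0.53 ± 0.11 for Sod2 (adjusted p = 0.000850) and -0.80 ± 0.21 for Sod3 (adjusted p = 0.00727). For Gclm (-0.35 ± 0.15, adjusted p = 0.103) and Sod1 (-0.34 ± 0.14, adjusted p = 0.102) it was not called. Gclc lost its call without BAT CR 1, BAT control 2 or 3, SkM CR 1 or SkM control 2 (adjusted p up to 0.0548), and the other 4 kept theirs in all 29 fits with 1 library left out. Without both SkM CREX libraries low in slow fibre genes, Sod3 lost its call (-0.43, adjusted p = 0.0555). Gclm (-0.59, adjusted p = 0.0137), Srxn1 (-0.70, adjusted p = 0.0183) and Sod1 (-0.50, adjusted p = 0.0397) were then called lower in SkM, which made 7 members in all.

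Correlation across libraries was high for some pairs of members and low for others. Among members called lower in SkM CR, Nqo1 with Cat had r = 0.49, Srxn1 with Cat r = -0.25 and Srxn1 with Sod2 r = -0.05. In BAT the highest correlation of log2 CPM between members was that of Gclm with Sod1 (r = 0.95 over 15 libraries). In SkM, Cat with Sod3 (r = 0.92), Sod2 with Sod3 (r = 0.92) and Srxn1 with Hmox1 (r = 0.90 over 14 libraries) were highest. CREX library 3 had the highest value of both genes of the last pair. CREX libraries 2 and 3 had the lowest Cat, Sod2 and Sod3 of all SkM libraries, and their weight in these correlations was not tested. Among all genes tested, Gclm in BAT was most like Gpi1 (r = 0.97), Gapdh (r = 0.95) and Psmc4 (r = 0.95), and Sod1 most like Khk (r = 0.97), Psmb4 (r = 0.96) and Emc7 (r = 0.95). Gclc was most like Isy1 (r = 0.92), Tspan4 (r = 0.90) and Usp4 (r = 0.90). In SkM, Cat was most like Slc25a22 (r = 0.97), Hadha (r = 0.97) and Coro6 (r = 0.97), Sod2 like Dlst (r = 0.98), Akr1b10 (r = 0.98) and Ckmt2 (r = 0.97), Sod3 like Metrnl (r = 0.97), Cpt2 (r = 0.97) and Gm33543 (r = 0.96), and Nqo1 like Ift20 (r = 0.92), Paics (r = 0.91) and Prdm8 (r = 0.90). These values pool the 4 groups and share the group differences.

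The regulators of NRF2 were called about as often as other genes in SkM, 3 of 10, and 2 of 10 were called in BAT. The shares of all genes called in the average CR effect were 15.9% higher and 17.5% lower in BAT and 16.5% higher and 17% lower in SkM. Of 10 tested, 2 rose and none fell in the average CR effect in BAT. In this average effect Keap1 rose by 0.19 ± 0.06 in BAT (adjusted p = 0.0276), a call lost without any 1 of 6 libraries (control 1 and 3, CREX 1 and 2, EX 2 and 3; adjusted p up to 0.0750). Its BAT means were 31.2 ± 1.36 CPM in control (SD, n = 3) and 39.2 ± 2.76 CPM in CR (SD, n = 4). In the trained mice they were 35.2 ± 3.55 CPM in EX and 38.0 ± 4.33 CPM in CREX (SD, n = 4 each). In SkM Keap1 rose by 0.34 ± 0.08 (adjusted p = 0.00418). Nfe2l2 was not called in BAT (0.14 ± 0.08, adjusted p = 0.182), where it ranged from 38.1 to 61.4 CPM, and rose by 0.56 ± 0.18 in SkM (adjusted p = 0.0315), a call lost without any 1 of 7 libraries (CR 1, control 2, 3 and 4, CREX 3, EX 3 and 4; adjusted p up to 0.0945). Bach1 was called in neither (0.14 ± 0.10 in BAT, adjusted p = 0.310, and 0.20 ± 0.12 in SkM, adjusted p = 0.193). In SkM 2 regulators rose and 1 fell, Nfe2l1, by 0.36 ± 0.09 (adjusted p = 0.00796), a call lost without CREX libraries 2 and 3 (-0.31, adjusted p = 0.0817).

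Among genes of glutathione and thioredoxin use, Glrx moved in opposite directions in the tissues. Glrx, glutaredoxin, which removes glutathione from protein thiols, rose by 0.92 ± 0.10 in the average CR effect of BAT (adjusted p = 1.39e-05). Glrx measured 9.84 ± 0.298 CPM in BAT control (SD, n = 3) and 21.2 ± 2.58 CPM in CR (SD, n = 4). In the trained mice it measured 10.7 ± 0.668 CPM in EX and 18.6 ± 4.23 CPM in CREX (SD, n = 4 each). In SkM it fell by 0.53 ± 0.11 (adjusted p = 0.00186), and the difference between the tissues was -1.45 ± 0.16 (adjusted p = 5.94e-07). Of the 17 thioredoxin, peroxiredoxin and related genes, 8 rose and 2 fell in BAT, and 1 rose and 6 fell in SkM. Sesn1, a sestrin, rose in both, by 0.98 ± 0.17 in BAT (adjusted p = 0.000849) and 0.92 ± 0.12 in SkM (adjusted p = 5.00e-05). Msrb2, a mitochondrial methionine sulfoxide reductase, fell by 1.18 ± 0.14 in the average CR effect of SkM (adjusted p = 3.54e-05). In the sedentary groups alone it measured 16.7 ± 1.12 CPM in SkM control (SD, n = 4) and 8.17 ± 1.43 CPM in SkM CR (SD, n = 3). Prdx6, a peroxiredoxin that also handles phospholipid peroxides, fell by 0.51 ± 0.09 in SkM (adjusted p = 0.000560).

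Of 8 genes that supply NADPH, the reductant behind glutathione and thioredoxin, 5 rose in the average CR effect of BAT, beside 15.9% of genes called higher. In BAT CR against control 6 of the 8 rose, beside 9.99% of genes called higher. Me1, malic enzyme, rose from 418 ± 67.7 CPM in control (SD, n = 3) to 1199.9 ± 155 CPM in CR (SD, n = 4), by 1.49 ± 0.14 (adjusted p = 0.000275), and Tkt, transketolase of the pentose phosphate pathway, by 0.83 ± 0.08 (adjusted p = 0.000171). In SkM 1 of 8 rose and 2 fell in the average CR effect, beside 16.5% of genes called higher and 17% called lower. Of 18 genes of conjugation and carbonyl reduction tested in BAT, 13 rose and 3 fell in the average CR effect. The shares of all genes there were 15.9% higher and 17.5% lower. In SkM 6 rose and 5 fell of 17, beside 16.5% and 17% of genes. Mgst3, a microsomal glutathione transferase, rose in BAT by 0.79 ± 0.07 (adjusted p = 2.70e-06) and measured -0.19 ± 0.11 in SkM (adjusted p = 0.202). Gstm2 rose in SkM by 1.15 ± 0.17 (adjusted p = 0.000191), although reads of the near-identical Gstm and Gsta genes may be split among copies, which makes such values uncertain. Gsta3 had 0 to 6 counts a library in SkM control, 65 to 141 in SkM CR, 2 to 29 in SkM EX and 25 to 49 in SkM CREX. Hepatocyte genes summed to 45.9 to 255 CPM in the same SkM CR libraries and 0.348 to 7.35 CPM in control. Group and hepatocyte signal cannot be told apart for Gsta3 in SkM CR against control.

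Of 8 genes of haem and iron handling, 2 rose and 1 fell in the average CR effect of either tissue. The gene that fell was Slc40a1, the iron exporter ferroportin, by 1.45 ± 0.10 in BAT (adjusted p = 2.63e-07) and 0.70 ± 0.09 in SkM (adjusted p = 8.07e-05). Macrophages also make it, and the part of the lower macrophage markers in BAT CR was not tested. Of 5 genes of copper delivery, 3 rose in BAT, among them Ccs, the chaperone that loads copper into Sod1, by 0.27 ± 0.05 (adjusted p = 0.000419). In SkM Ccs was the only one of the 5 called, with a rise of 0.43 ± 0.11 (adjusted p = 0.00605) that lost its call without CREX libraries 2 and 3 (0.30, adjusted p = 0.125).

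**Figure D4:**
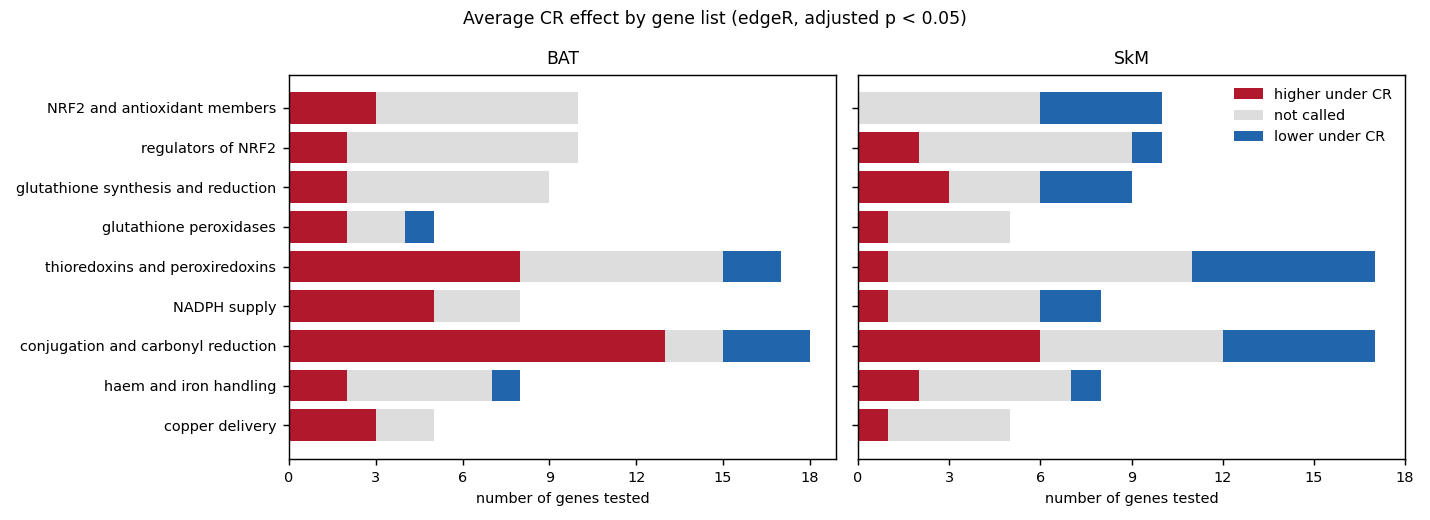
Number of genes of each list that were higher (red), not called (grey) or lower (blue) in the average CR effect of BAT (left) and SkM (right), in edgeR at an adjusted p of 0.05. The members show 3 higher in BAT and 4 lower in SkM, and the conjugation list shows 13 higher and 3 lower of 18 in BAT.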

How the data were processed

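Per the labels and the study's methods, total RNA was sequenced as 150 bp paired-end reads, trimmed, aligned to mm10 with STAR 2.7.10a and quantified with RSEM, and the deposited values are the authors' expected counts per gene symbol, without normalization. The annotation is not given in the sources used here. Expected counts were rounded to whole numbers. Each comparison of a pair of groups was fitted with edgeR 4.0.16 (R 4.3.3; TMM, filterByExpr, robust quasi-likelihood test) on its own libraries. The average CR effect and the interaction were fitted on all libraries of a tissue, and tissue contrasts on all 29 libraries. P-values were Benjamini-Hochberg adjusted over all genes tested. SE is the log2 fold change divided by the square root of F, and log2 CPM for correlations used a prior count of 2. The test was checked on simulated data, where false calls in the main fits of a pair of groups ran slightly above the nominal rate. The deposited table has 27 symbols turned into dates and 2 duplicated symbols, none named here.

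The members and lists were chosen with earlier results of these data known. Genes named are all members, Nfe2l2, Keap1 and Bach1, up to 3 called genes with the smallest p per pathway list, and the 3 genes most like each member called in the average CR effect. Nr4a1 and the slow fibre and hepatocyte lists were chosen after seeing the data. Alternatives were DESeq2 1.42.0, RLE size factors, no filter, at least 10 counts in every library, 1 fit on all groups, a fold minimum of 1.5, the replicate block, marker scores as covariates, control libraries only for the tissue level, each library left out and, added after seeing the data, both SkM CREX libraries low in slow fibre genes left out. Positions and exon lengths came from GENCODE annotation of GRCm38.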

Additional observations from a re-analysis of the deposited data

Results flagged for a closer look

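The CR effect differed between SkM and BAT, by a test of the difference itself, for 5 members. SkM minus BAT was -0.82 for Cat (adjusted p = 0.000569), -0.34 for Gclc (adjusted p = 0.0337), -0.84 for Nqo1 (adjusted p = 0.00171), -0.53 for Sod2 (adjusted p = 0.000850) and -0.80 for Sod3 (adjusted p = 0.00727), in edgeR over all 29 libraries on the log2 scale. In 3 of the 50 sets of 4 libraries examined (each member in each group of 4), 1 library stood far from the others by Dixon's criterion, which chance alone gives in about 5% of sets. BAT CREX library 2 had 25.5 CPM of Gclm against 22.1 to 22.6 in the other libraries of its group. BAT CREX library 3 had 41.7 CPM of Srxn1 against 55.7 to 57.4. BAT CR library 1 had 5.48 CPM of Hmox1 against 6.89 to 7.06.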

How the results depend on the processing

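A fold minimum of 1.5 reduced the members called to 1 in BAT CR against control, 2 in SkM CR against control, 0 in the average CR effect of BAT, 2 in that of SkM and 3 in the tissue difference. In BAT CREX against EX, 2 members were called by DESeq2, 1 without a filter, 2 in a fit on all groups and 2 with the muscle fibre covariate. Over all genes, 1061 were called in the main fit and 1620, 991, 1796 and 1140 in these fits, in the order given. In SkM CR against control, 2 were called with the brown adipocyte covariate and 0 with the hepatocyte covariate. No filter lost Sod2 (4 called), 1 fit on all groups lost Srxn1 (4 called) and the slow fibre covariate added Txnrd1 (6 called). Over all genes, 1839 were called in the main fit and 1216, 142, 2053, 1763 and 1898 in these fits, in the order given. In BAT CR against control 1 fit on all groups lost Srxn1 (3 called), with 2681 genes called against 2778 in the main fit. In SkM CREX against EX, 3 were called by DESeq2, 3 in a fit on all groups and 3 with the brown adipocyte covariate. With the slow fibre covariate 0 were called. With the hepatocyte covariate, whose genes stood high only in CREX library 1, 5 were called (Gclm and Hmox1 higher). Over all genes, 1781 were called in the main fit and 2458, 2575, 1984, 53 and 3653 in these fits, in the order given. In the average CR effect of BAT the muscle fibre covariate gave 5, with 4882 genes called against 4648 in the main fit. The slow fibre and hepatocyte covariates and the exclusion of 2 libraries were chosen after seeing the data, and the causes were not tested. With 1 library left out, members called ranged from 2 to 4 in BAT CR against control, 0 to 1 in BAT CREX against EX, 2 to 5 in SkM CR against control, 0 to 5 in SkM CREX against EX, 0 to 1 in SkM CREX against CR, 3 to 4 and 4 to 5 in the average CR effects of BAT and SkM, 0 to 1 in the SkM interaction, 4 to 6 in the tissue difference and 9 to 9 in the tissue level. They were 0 to 0 in the other comparisons. In the same fits, genes called ranged from 1529 to 3434 in BAT CR against control, 1051 to 2049 in SkM CR against control and 368 to 4163 in SkM CREX against EX. Srxn1 in the average CR effect of SkM reversed from 0.06 to -0.44 without SkM CREX library 3 (its other values with 1 library left out reached 0.23) and to -0.48 without libraries 2 and 3. Of 7711 results for single genes, 7119 kept direction and call, 440 lost a call, 150 gained one and 2 reversed, and 262 changed sign while called in neither fit.

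Replicate numbers were not used to pair samples in the main fits. In every comparison of a pair of groups, the lowest correlation between same-numbered libraries was negative. The correlations ran from -0.46 to 0.04 in BAT CR against control and from -0.02 to 0.29 in SkM CR against control. In BAT CREX against EX they ran from -0.15 to 0.48. With so few pairs this check cannot show that the samples were unpaired. With the replicate block, 3 members were called in BAT CR against control and 5 in SkM CR against control. In SkM CREX against EX 1 was called (Cat in place of Sod2). Members called were 3 and 4 in the average CR effects of BAT and SkM, 4 in the tissue difference, 9 in the tissue level and 0 elsewhere. Genes called went from 2778 to 1309 in BAT CR against control and from 1839 to 2238 in SkM CR against control. They went from 1781 to 688 in SkM CREX against EX. In the average CR effects they went from 4648 to 3970 in BAT and from 4556 to 3803 in SkM. In the tissue difference they went from 3048 to 2499 and in the tissue level from 12810 to 12682. Blocked fits of a pair of groups keep few residual degrees of freedom and made false calls above the nominal rate in simulated data. Precision is limited for Nqo1 in BAT, with 20 to 55 counts a library, and for Gsta3 in SkM control, with 0 to 6.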

Other observations

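In the average CR effect of either tissue, 5 of 8 endothelial markers fell. Of 5 glutathione peroxidases, 2 rose and 1 fell in BAT and 1 rose in SkM. Of 9 genes of glutathione synthesis and reduction other than Gclc and Gclm, 2 rose in BAT, and in SkM 3 rose and 3 fell.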
